A study of Mus musculus with 8 samples.

Results

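Transforming growth factor beta (TGF-beta) signalling was examined through 10 genes: the ligand genes Tgfb1, Tgfb2 and Tgfb3, the latent TGF-beta binding protein genes Ltbp1, Ltbp2 and Ltbp3, the receptor genes Tgfbr1 and Tgfbr2, the inhibitor gene Smad7 and the TGF-beta-induced matrix gene Tgfbi. They were chosen by name as members of this pathway and matched to the gene symbols of the array annotation, and all 10 were among the 22180 genes with a symbol. These genes, and the lists and pairs used below, were chosen with earlier results of these data known. The study infected primary articular chondrocytes, the cells of joint cartilage, for 24 h with an adenoviral vector that expresses ZIP8, a zinc importer (Ad-Zip8, 4 arrays), or with a null adenovirus (Ad-null, 4 arrays). The cells of both groups came from the femoral condyles and tibial plateaus of 5-day-old wild-type ICR mice and were grown as monolayers in medium with serum, so control cells were virus-infected and serum-fed too. The labels call the arrays biological replicates without naming the animals or pools behind each culture, and the p-values therefore rest on the spread among these arrays, which may be partly technical.

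TGF-beta is secreted bound to its own propeptide, which keeps it latent, and most latent complexes are joined to a latent TGF-beta binding protein that tethers them in the matrix. Once released, the ligand binds the type II receptor, encoded by Tgfbr2, which activates the type I receptor, encoded by Tgfbr1, and this receptor phosphorylates the transcription factors Smad2 and Smad3. Smad7 blocks the type I receptor. In cartilage the pathway is known for holding articular chondrocytes back from hypertrophy and for supporting matrix production.

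Values are log2 intensities per gene on which a difference of 1 is a 2-fold change. They ran from 0.85 to 13.8, with array medians between 5.04 and 5.11, and each of the 10 genes lay above those medians on all 8 arrays. Slc39a8, which encodes ZIP8, had a mean of 11.1 ± 0.15 in Ad-Zip8 cells and 6.20 ± 0.07 in Ad-null cells (SD, n = 4 each), a 30.4-fold difference (limma adjusted p = 3.49e-09), so both sets of arrays matched their labels. The 11 chondrocyte markers averaged 11.8 to 12.1 per array in Ad-Zip8 cells and 12.5 on each Ad-null array, and 8 of them fell. Of 11 macrophage markers 2 rose (Cd14 and Cd68) and 1 fell, with list means of 5.02 to 5.12 in Ad-Zip8 cells and 4.88 to 4.97 in Ad-null cells, and 7 of the 11, Ptprc and Adgre1 among them, had a mean below the array medians. Of 9 fibroblast markers 3 rose (Lum, Dcn and Pdgfra) and the other 6 did not pass, with list means of 8.26 to 8.49 in Ad-Zip8 cells and 7.93 to 8.35 in Ad-null cells. By the same test, described below, 5.12% of all genes fell and 5.48% rose. The part of these markers in the results below was not tested.

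Of the 10 genes, 4 fell (Tgfb2, Tgfb3, Tgfbr2 and Tgfbi), 1 rose (Ltbp2) and 5 did not pass the test, which was limma's moderated test with Benjamini-Hochberg adjustment over all 22180 genes and a threshold of 0.05. Over all genes 10.6% were called, 5.12% as lower (1136 genes) and 5.48% as higher (1216 genes), beside 4 of 10 and 1 of 10 here. Groups that do not overlap were found for 6 of the 10 genes and for 17.6% of all genes. All 4 Ad-Zip8 arrays lay below all 4 Ad-null arrays in 5 of the 10 genes (9.74% of all genes) and above them in 1 (7.89% of all genes). With 1 array left out, the whole-table counts dropped in every fit, to 708 to 923 lower and 924 to 1119 higher genes. The fewest lower genes were found without Ad-Zip8 replicate 1 (708) and without Ad-null replicate 1 (721). The same 5 pathway genes, each with a limma adjusted p of 0.00962 or lower in the fit reported, passed in each of the 14 alternative fits. Tgfbr1 was added in 3 of them. The median log2 change of the 10 genes was -0.16, and that of all genes -0.02. These arrays measure RNA from whole cultures, in which fewer cells of a type and less RNA per cell cannot be told apart.

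**Figure D1:**
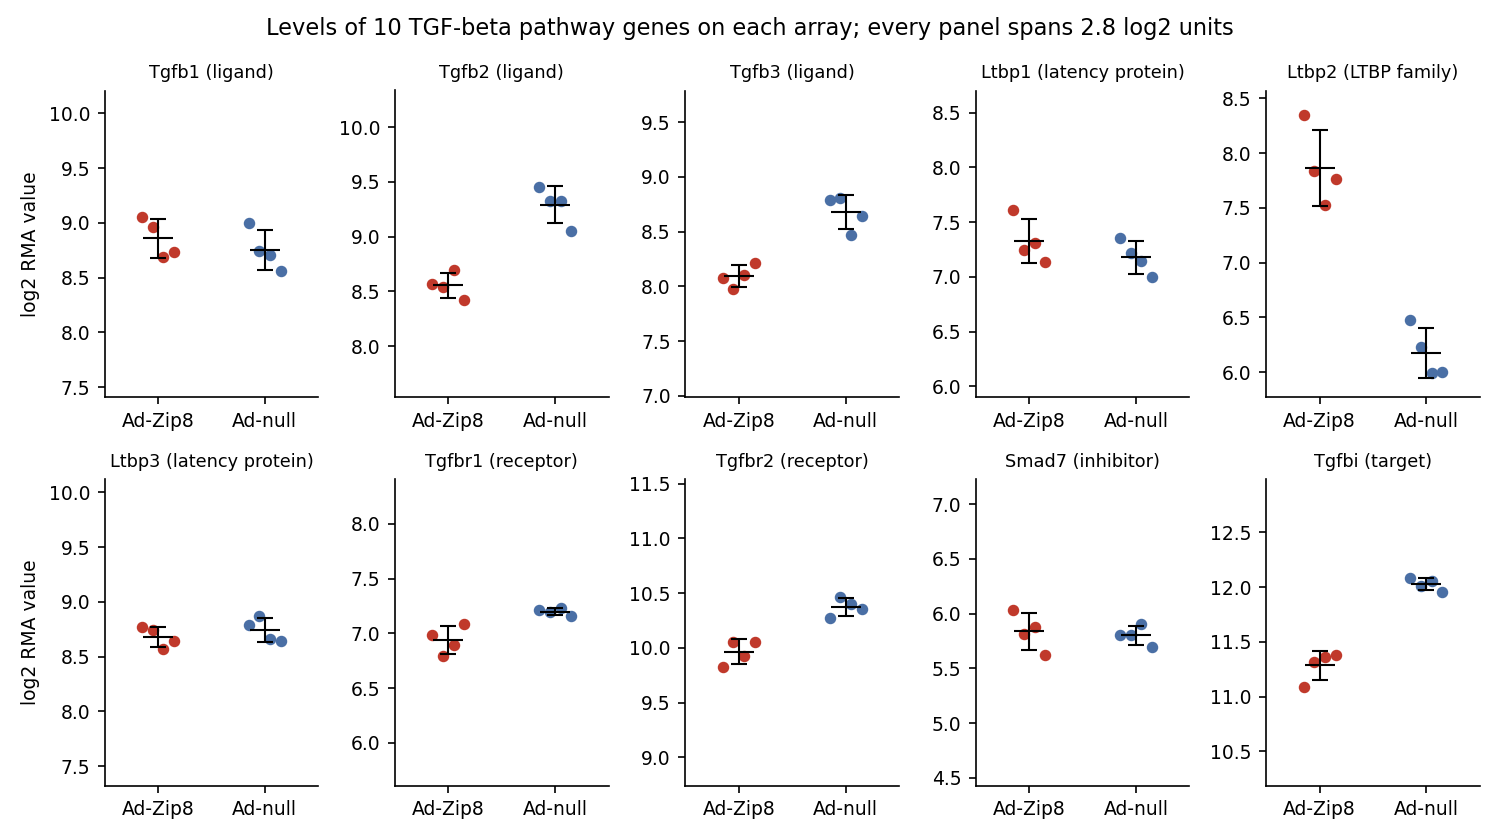
Log2 level of each of the 10 genes (vertical axis, the same span in each panel) on the 4 Ad-Zip8 arrays (left, red) and the 4 Ad-null arrays (right, blue); points are arrays in order of replicate number, and the bars give the mean and SD. The groups are separate for Tgfb2, Tgfb3, Ltbp2, Tgfbr1, Tgfbr2 and Tgfbi and overlap for Tgfb1, Ltbp1, Ltbp3 and Smad7.

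Among the ligand genes, Tgfb2 and Tgfb3 fell in Ad-Zip8 cells and Tgfb1 did not pass the test. TGF-beta 2 is the ligand that binds the type II receptor weakly on its own and relies on the co-receptor betaglycan. Tgfb2 had levels of 8.57, 8.54, 8.69 and 8.42 in Ad-Zip8 replicates 1 to 4 and of 9.45, 9.33, 9.33 and 9.05 in Ad-null replicates 1 to 4. The highest Ad-Zip8 array thus lay below the lowest Ad-null array, and the gene was 1.66-fold lower (log2 change -0.73, SE 0.10, limma adjusted p = 0.00113).

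Tgfb3 had levels of 8.08, 7.97, 8.10 and 8.21 in the Ad-Zip8 replicates, against 8.79, 8.80, 8.47 and 8.65 in the Ad-null replicates. All 4 Ad-Zip8 arrays were again below all 4 Ad-null arrays, and Tgfb3 was 1.5-fold lower (log2 change -0.59, SE 0.09, limma adjusted p = 0.00299). Tgfb1, the gene of the most widely studied isoform, had levels of 9.06, 8.96, 8.69 and 8.73 with Ad-Zip8 and of 9.0, 8.75, 8.71 and 8.56 with Ad-null. The 2 groups overlapped over most of their range. The log2 change of Tgfb1 was 0.11 (95% interval -0.15 to 0.37, limma adjusted p = 0.666), an interval that excludes a decrease of the size seen in Tgfb2 or Tgfb3.

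The start region of Tgfb2 is shown because this ligand gene had the largest decrease of the 3. RefSeq (GRCm38.p6) places the 250 bases before its start at chr1:186705990-186706239 on the minus strand. Capitals mark the letters CAGACA, a core of sequences that Smad proteins can bind, and TATAAA, the TATA box.
Tgfb2: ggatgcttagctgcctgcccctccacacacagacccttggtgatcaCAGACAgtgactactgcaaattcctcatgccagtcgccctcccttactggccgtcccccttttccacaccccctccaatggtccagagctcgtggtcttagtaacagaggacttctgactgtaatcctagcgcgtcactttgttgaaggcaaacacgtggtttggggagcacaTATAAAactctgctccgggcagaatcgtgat
The TATAAA match spans bases -31 to -26 before the start, and the CAGACA match bases -204 to -199. On either strand, TATAAA occurs in 12.4% and CAGACA in 17.1% of all 32851 start regions of this length.

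Of the latent TGF-beta binding protein genes, Ltbp2 rose and the other two did not pass the test. The Ltbp2 product shares the family's structure and fibrillin association but, unlike those of Ltbp1 and Ltbp3, is known not to bind latent TGF-beta. Ltbp2 had levels of 8.35, 7.84, 7.52 and 7.76 in the Ad-Zip8 replicates, against 6.48, 6.23, 5.99 and 6.0 in the Ad-null replicates. Each Ad-Zip8 array exceeded each Ad-null array by at least 1 log2 unit, and the gene was 3.23-fold higher (log2 change 1.69, SE 0.17, limma adjusted p = 2.11e-04), the largest change of the 10 genes. A second probe set, assigned both to Ltbp2 and to another gene, was not used.

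Ltbp1, whose product binds latent TGF-beta, had levels of 7.61, 7.24, 7.31 and 7.14 with Ad-Zip8 and of 7.36, 7.22, 7.15 and 7.0 with Ad-null. These groups overlapped, with a log2 change of 0.15 (95% interval -0.11 to 0.40, limma adjusted p = 0.522). Ltbp3, which encodes another carrier of latent TGF-beta, lay between 8.57 and 8.77 with Ad-Zip8 and between 8.64 and 8.87 with Ad-null, a log2 change of -0.06 (95% interval -0.24 to 0.12, limma adjusted p = 0.739). Replicate 1 was the highest array of its group for Ltbp1 and Ltbp2, and also for Tgfb1, in both Ad-Zip8 and Ad-null cells.

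The start region of Ltbp2 is shown as that of the 1 gene called higher. It lies at chr12:84876492-84876741 on the minus strand (RefSeq, GRCm38.p6).
Ltbp2: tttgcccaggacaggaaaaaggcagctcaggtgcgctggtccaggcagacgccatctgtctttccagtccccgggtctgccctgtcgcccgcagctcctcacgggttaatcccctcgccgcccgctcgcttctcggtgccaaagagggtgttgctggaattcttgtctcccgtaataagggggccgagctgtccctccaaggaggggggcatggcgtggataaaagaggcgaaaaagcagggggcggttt
It carries no capitals because none of the letters searched was in it on either strand. Beside CAGACA and TATAAA, these were TGACTCA or TGAGTCA for AP-1 (4.46% of all start regions), TGACGTCA for the cAMP response element (1.55%), TGCACNC or TGCGCNC for the metal response element (21.4%) and the NF-kB consensus (7.25%). Among the 10 start regions read for 8 of the pathway genes (those other than Tgfb3 and Smad7), CAGACA was also in 1 of the 2 of Tgfbr1 and in 1 of the 2 of Ltbp1, the AP-1 letters were in none, the NF-kB consensus was in that of Tgfb1, and TGACGTCA and a metal response element were each in 1 of the 2 start regions of Ltbp1.

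The type II receptor gene Tgfbr2 fell, and the type I receptor gene Tgfbr1 lay just outside the threshold. Tgfbr2 had levels of 9.82, 10.06, 9.92 and 10.05 in the Ad-Zip8 replicates, against 10.28, 10.46, 10.4 and 10.35 in the Ad-null replicates. The groups did not overlap, and Tgfbr2 was 1.33-fold lower (log2 change -0.41, SE 0.08, limma adjusted p = 0.00962). Tgfbr1 had levels of 6.98, 6.79, 6.89 and 7.08 with Ad-Zip8, against 7.22, 7.19, 7.23 and 7.15 with Ad-null. All 4 Ad-Zip8 arrays were below all 4 Ad-null arrays. The log2 change of Tgfbr1 was -0.26 (SE 0.08, limma adjusted p = 0.0675), and it did not pass in 11 of 14 alternative fits. Its adjusted p was 0.0257 after dim genes were left out, 0.0386 with a variance trend and 0.0474 without Ad-Zip8 replicate 4, but 0.12 with arrays centred on their medians, 0.0966 with the replicate block and up to 0.164 with 1 array left out.

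Tgfbi, which encodes a secreted matrix protein named for its induction by TGF-beta, fell, and Smad7, an inhibitor that TGF-beta itself induces, did not pass the test. Tgfbi had levels of 11.09, 11.32, 11.36 and 11.38 in the Ad-Zip8 replicates, against 12.08, 12.01, 12.06 and 11.96 in the Ad-null replicates. The groups were well apart, and Tgfbi was 1.67-fold lower (log2 change -0.74, SE 0.08, limma adjusted p = 3.54e-04), the smallest adjusted p among the genes that fell. Smad7 had levels of 6.03, 5.82, 5.88 and 5.63 with Ad-Zip8 and of 5.80, 5.80, 5.90 and 5.70 with Ad-null. Its groups overlapped fully, with a log2 change of 0.04 (95% interval -0.17 to 0.25, limma adjusted p = 0.869) that turned to -0.028 without Ad-Zip8 replicate 1.

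**Figure D2:**
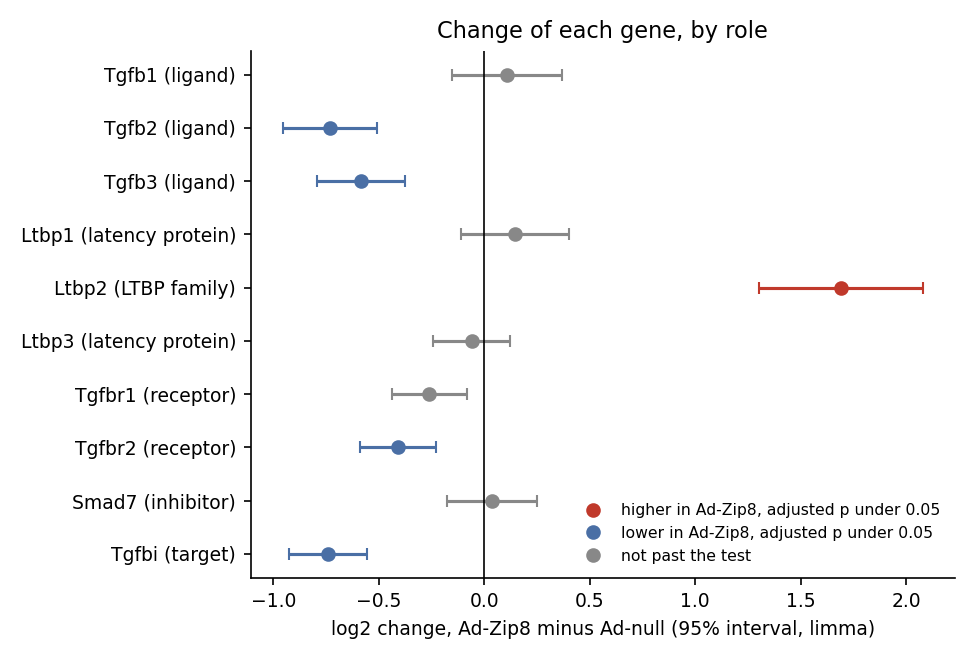
Log2 change of each gene, Ad-Zip8 minus Ad-null (horizontal axis), with its limma 95% interval, by role; the intervals are not adjusted for the number of genes. Ltbp2 lies at 1.69, the 4 genes that fell lie between -0.74 and -0.41, and the interval of Tgfbr1 stays below 0 although its adjusted p of 0.0675 did not pass.

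Whether genes of 1 group (the ligands, the LTBP family or the receptors) changed unequally was tested for 7 pairs, with the log2 difference of the pair on each array compared between the groups. The test was a two-sided exact permutation test over the 70 ways of dividing the 8 arrays, which cannot give a p below 0.0286. The difference Tgfb2 minus Tgfb1 was -0.31 ± 0.22 on the Ad-Zip8 arrays and 0.53 ± 0.08 on the Ad-null arrays (SD, n = 4 each), so the change of Tgfb2 was 0.84 log2 units below that of Tgfb1 (exact permutation p = 0.0286, adjusted p = 0.05 over the 7 pairs, equal to the threshold). The difference Tgfb3 minus Tgfb1 was -0.77 ± 0.25 on the Ad-Zip8 arrays and -0.08 ± 0.17 on the Ad-null arrays, with the same p and adjusted p. Tgfb3 and Tgfb2 were not distinguished (difference of changes 0.15, exact permutation p = 0.343).

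Among the binding protein genes, Ltbp2 minus Ltbp1 was 0.54 ± 0.23 on the Ad-Zip8 arrays and -1.0 ± 0.11 on the Ad-null arrays (SD, n = 4 each), a difference of changes of 1.55 log2 units. Ltbp3 minus Ltbp2 was 0.81 ± 0.27 on the Ad-Zip8 arrays and 2.57 ± 0.17 on the Ad-null arrays, a difference of changes of -1.75. Both pairs reached the smallest p of the exact permutation test (p = 0.0286, adjusted p = 0.05). An adjusted p of exactly 0.05 was counted as reaching the threshold for pairs, whereas genes were called only below 0.05. Under the rule used for genes, no pair would have passed. The adjusted value of 0.05 arose because 4 of the 7 pairs shared the smallest p, and fewer would have left it above 0.05. These 4 pairs also share genes (Tgfb1 and Ltbp2), so they are not separate results. Ltbp3 and Ltbp1 (difference of changes -0.21, exact permutation p = 0.114) and the receptor genes Tgfbr2 and Tgfbr1 (-0.15, exact permutation p = 0.2) did not pass. Taken over same-numbered arrays as 4 pairs, 6 of the 7 differences had p = 0.125, the smallest an exact sign-flip test over 4 pairs can give, so that test does not separate Ltbp3 and Ltbp1, or the receptors, from the 4 differences above. The exception was Tgfb3 with Tgfb2 (exact sign-flip p = 0.25).

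**Figure D3:**
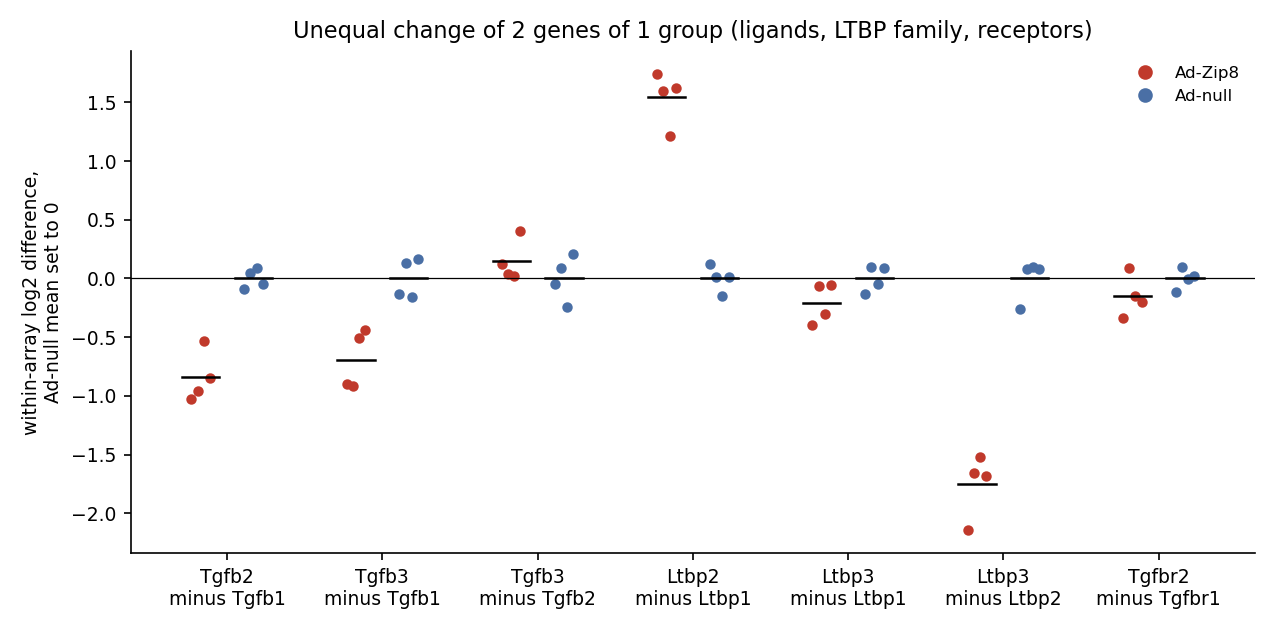
Within-array log2 difference of 2 genes of the ligands, the LTBP family or the receptors (vertical axis), with the Ad-null mean of each pair set to 0; Ad-Zip8 arrays are red and left, Ad-null arrays blue and right, and lines are means. The groups are separate for the pairs of Tgfb1 with Tgfb2 or Tgfb3 and of Ltbp2 with Ltbp1 or Ltbp3, and overlap for the other 3 pairs.

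The rest of the pathway was read from 4 lists with 73 measured genes, of which 12 rose, 13 fell and 48 did not pass. Each list count below stands beside 5.48% higher and 5.12% lower over all genes. Their median log2 change was -0.05. Of 24 genes of latency and activation, 5 rose and 3 fell. Lrrc32, which encodes the protein GARP that holds latent TGF-beta on the cell surface, rose by 0.60 on the log2 scale (SE 0.11, limma adjusted p = 0.00532), and Dcn, which encodes the TGF-beta-binding proteoglycan decorin, rose by 0.70 (SE 0.08, limma adjusted p = 4.91e-04). Dcn is the same gene, with the same values, that was counted above among the fibroblast markers that rose. Plat, the gene of tissue plasminogen activator, rose by 0.71 (limma adjusted p = 0.0173) and did not pass without replicate 1 of either group (adjusted p up to 0.0541). Pcsk6, a proprotein convertase gene, fell by 0.73 and Fbln5, which encodes an elastic fibre protein, fell by 0.70 (limma adjusted p = 4.45e-04 and 6.69e-04).

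Of 8 receptor partners and antagonists, 2 rose and 2 fell. Tgfbr3, which encodes the co-receptor betaglycan that presents TGF-beta 2, had levels of 8.59 ± 0.24 in Ad-Zip8 cells and 7.18 ± 0.15 in Ad-null cells (SD, n = 4 each), a log2 change of 1.41 (limma adjusted p = 9.61e-05), opposite in direction to that of Tgfb2. Acvr1, the gene of the type I receptor ALK2, rose by 0.55 (limma adjusted p = 0.00366), and Bambi, a pseudoreceptor gene, fell by 0.63 (limma adjusted p = 0.00412). Cd109, which encodes a co-receptor that dampens TGF-beta signalling, had a log2 change of -0.24 (limma adjusted p = 0.0416) that did not pass in 11 of 14 alternative fits, the replicate block among them (adjusted p = 0.0721).

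Of 20 genes of the Smad pathway and its regulators, 1 rose, 1 fell and 18 did not pass, close to the 10.6% of all genes called in either direction. Smad2 had a log2 change of -0.11 and Smad3 one of 0.02 (limma adjusted p = 0.537 and 0.901), that of Smad3 being -0.0015 without Ad-Zip8 replicate 4. Zfyve9, which encodes the adaptor that brings Smads to the receptor, fell by 0.34 (limma adjusted p = 0.0215), and Nedd4l, a ubiquitin ligase gene that acts on activated Smads, rose by 0.26 (limma adjusted p = 0.0313). Zfyve9 did not pass in 5 and Nedd4l in 8 of 14 alternative fits. For Zfyve9 these included the average of its probe sets (log2 change -0.26, limma adjusted p = 0.0721). For Nedd4l they included the replicate block (limma adjusted p = 0.051).

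Of 23 genes that TGF-beta is known to raise in other settings, 7 fell, 4 rose and 12 did not pass. The median log2 change of this list was -0.17. The smooth muscle and contractile genes Cnn1, Tagln and Acta2 fell by 1.27, 0.87 and 0.72 on the log2 scale, and Tnc, which encodes tenascin C, fell by 1.15 (limma adjusted p of 6.29e-04 or lower). Cdkn2b, which encodes a cell cycle inhibitor, rose by 0.99 (limma adjusted p = 1.58e-04). Prg4, Lox and Bhlhe40 also rose, by 1.84, 1.15 and 0.80 (limma adjusted p of 0.00147 or lower). The others that fell were Itga5, Col1a2 and Col5a1, with log2 changes of -0.58, -0.38 and -0.24 (limma adjusted p of 0.0465 or lower). Ccn2, the gene of connective tissue growth factor, had a log2 change of -0.06 (limma adjusted p = 0.692). Pmepa1, whose product dampens the pathway, had one of -0.42 (limma adjusted p = 0.262), and of -0.63 without Ad-null replicate 4 (adjusted p = 0.024).

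**Figure D4:**
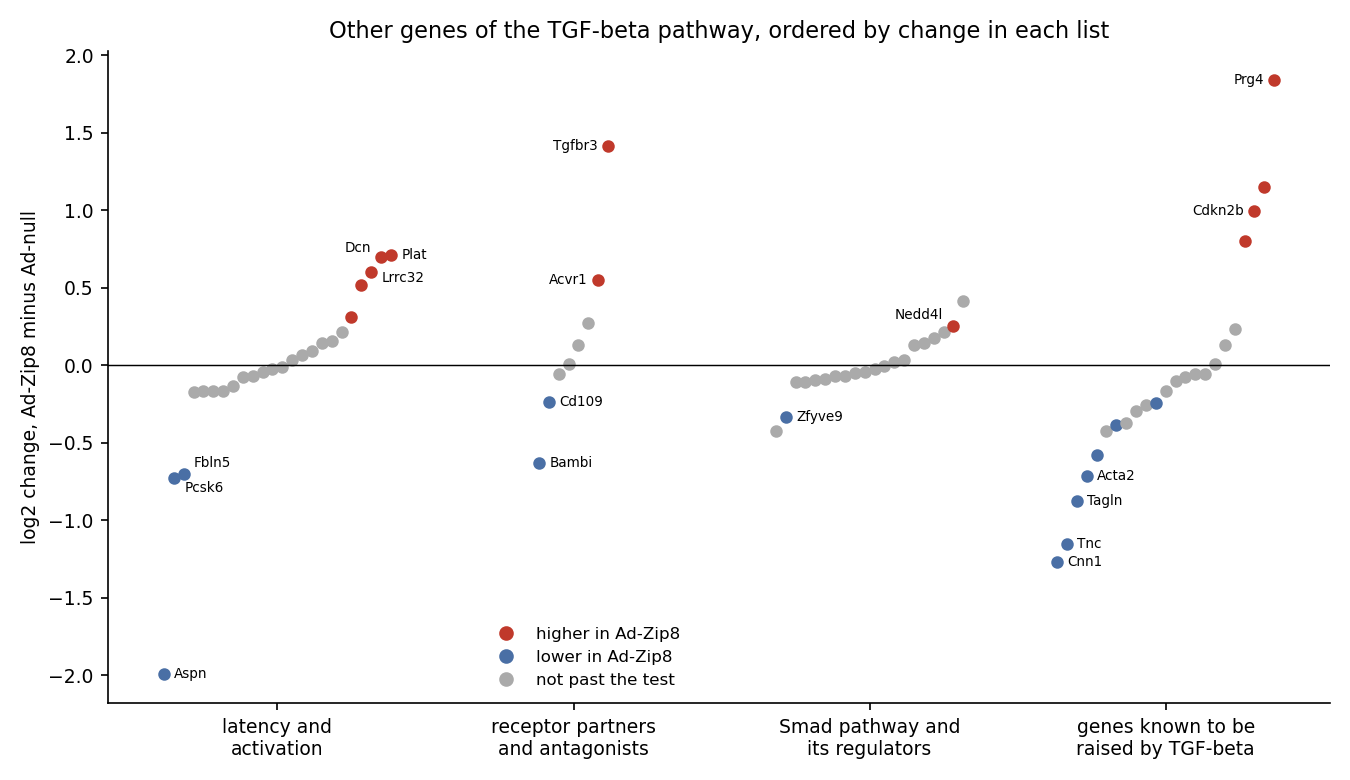
Log2 change, Ad-Zip8 minus Ad-null (vertical axis), of the genes in 4 further TGF-beta pathway lists, each ordered by change; red genes passed as higher, blue genes as lower, and grey genes did not pass. The Smad list is mostly grey with 1 red and 1 blue gene, Tgfbr3 stands highest among receptor partners at 1.41, and the lowest and highest points, Aspn (-1.99) and Prg4 (1.84), are labelled because of their values. The change of Aspn is imprecise (SE 0.47, limma adjusted p = 0.0236), with levels of 3.30 to 5.06 with Ad-Zip8 and 5.17 to 7.16 with Ad-null. Its Ad-Zip8 mean of 4.46 lay below the array medians.

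The genes with the most similar profiles were sought for the gene with the smallest adjusted p in each direction, by the root mean square difference over the 8 arrays between profiles centred on their own means. The 8 arrays include both groups, so a similar log2 change follows from this selection. For Tgfbi these were Pde4dip (0.044), Pcolce2 (0.044) and Ppip5k2 (0.047), with log2 changes of -0.68, -0.72 and -0.72 beside -0.74 for Tgfbi. Pcolce2 encodes an enhancer of procollagen processing. For Ltbp2 they were Gcnt2 (0.098), Sting1 (0.12) and Epb41l3 (0.15), with log2 changes of 1.67, 1.82 and 1.45 beside 1.69 for Ltbp2. Sting1 encodes an adaptor of innate immune DNA sensing, and the change of Gcnt2 was 0.70 when its probe sets were averaged.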

How the data were processed

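The authors deposited log2 values per probe set. Per the submitters' processing notes these come from RMA, which corrects background, gives the arrays a common distribution and summarises probes. Its version and filters were not given in the sources used here. Scanner files were not used here, so the number of arrays limits the precision and no gene was called absent. Of 41345 probe sets, 23521 had 1 gene symbol, 1814 had several and 16010 were not listed; 23328 of the 23521 Entrez identifiers were in the reference gene table (GRCm38.p6), and 0 symbols changed. Where a gene had more than 1 such probe set (1082 genes), the brightest on average was used; each of the 10 pathway genes had 1.

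Groups were compared with lmFit and eBayes (limma 3.58.1, R 4.3.3), tested on simulated data. The members, lists and pairs were chosen with earlier results of these data known. Beside Slc39a8 and the 10 genes, the text names up to 5 called genes per list with the smallest adjusted p. It also names 5 fixed genes and the 3 most similar profiles for 2 genes. Together these are the 37 genes followed through the alternatives. Aspn, Prg4, the cell type markers named and the remaining called genes of the list raised by TGF-beta were chosen after their values were seen. Deviations from group means correlated at 0.11 to 0.37 between same-numbered arrays and at -0.27 to 0.16 between others. Same-numbered replicates 2, 3 and 4 (0.23, 0.37 and 0.17) exceeded every value between others, and replicate 1 (0.11) lay within that range. The labels name no shared culture, so whether the numbers pair the arrays was not settled. The limma fit and the permutation test reported did not use such pairing. A replicate block was fitted as an alternative, and the sign-flip test used the same pairs. Other alternatives were 2 rescalings, a filter on dim genes (mean below 5.08), a variance trend, averaged probe sets and each array left out.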

Additional observations from a re-analysis of the deposited data

Results flagged for a closer look

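On 3 of the 74 groups of 4 examined (37 genes), 1 array lay far from the other 3 relative to the spread of its group, and chance alone marks about 5% of such groups. None was in one of the 10 pathway genes. Dcn was 12.63 on Ad-Zip8 replicate 2, against 12.74 to 12.75 on the other Ad-Zip8 arrays. Pcolce2 was 10.48 on Ad-Zip8 replicate 1, against 10.81 to 10.84 on the others, and Epb41l3 was 8.66 on that same array, against 8.05 to 8.11 on the others.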

How the results depend on the processing

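The 4 genes that fell and the 1 that rose kept direction and call in all 14 alternatives, with log2 changes of -0.81 to -0.68 for Tgfb2, -0.65 to -0.54 for Tgfb3, -0.44 to -0.36 for Tgfbr2, -0.77 to -0.68 for Tgfbi and 1.53 to 1.81 for Ltbp2. Tgfbr1 passed after dim genes were left out and with the variance trend (log2 change -0.26 in both, as in the fit reported, with a smaller SE of 0.072 and 0.077), and with 1 array left out its change ranged from -0.31 to -0.21. Smad7 turned to -0.028 and Smad3 to -0.0015 without 1 array each (cause not tested), with Smad7 between -0.028 and 0.11 and Smad3 between -0.0015 and 0.067 over the 8 such fits. The count of all genes lower ranged from 708 to 923 with 1 array left out. Under the replicate block the differences of changes were -0.84 (Tgfb2 minus Tgfb1), -0.69 (Tgfb3 minus Tgfb1), 1.55 (Ltbp2 minus Ltbp1) and -1.75 (Ltbp3 minus Ltbp2). Their exact sign-flip adjusted p was 0.146, which 4 pairs cannot pass by construction. Among the 37 genes followed through the alternatives, the block changed the calls of Cd109 and Nedd4l and no other. Other genes named in the text, Aspn and Prg4 among them, were not followed singly. With the block, 12 genes of the 4 pathway lists were called higher and 11 lower, against 12 and 13 without it. Beside the 10 pathway genes, the genes followed gave 378 values under alternatives. Of these, 350 kept direction and call, 26 no longer passed, 1 newly passed and 1 reversed.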
